A study of Mus musculus with 6 samples.

Results

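Histone genes were followed in hearts of mouse embryos with a deletion of Hdac3, a histone deacetylase, driven by Isl1-Cre. They were taken by symbol, as protein-coding genes named H1f, H2ac, H2bc, H3c or H4c followed by a number. Only array rows that carried 1 gene symbol were used, and the row with the highest mean over the 6 arrays stood for a gene. This gave 29 of the 22180 genes measured: 8 linker histone (H1) genes, 6 H2A genes, 8 H2B genes, 0 H3 genes and 7 H4 genes. Of these, 21 lie in the large histone cluster of chromosome 13 and 5 in the cluster of chromosome 3. The other 3, H1f7, H1f8 and H1f10, are linker histone genes outside the clusters, so the name "clustered" covers 26 of the 29.

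The samples were 3 pools of Hdac3-Isl1KO hearts (genotype Hdac3-flox/flox; Isl1-Cre) and 3 pools of Hdac3-flox/flox hearts, which carried both floxed alleles and no Cre. All were C57BL/6 and taken at embryonic day 9.5. Isl1-Cre recombines in cells that express Isl1, among them the second heart field progenitors of the outflow tract and right ventricle, so only part of each heart was targeted, and Cre and deletion cannot be told apart. Values were RMA log2 intensities from Affymetrix arrays of total RNA. Correlations between arrays lay between 0.980 and 0.989, and all 10 cardiomyocyte markers examined lay above the median row of the array, 5.66, in their mean over the arrays. Hdac3 itself averaged 9.21 ± 0.10 in Hdac3-Isl1KO and 9.68 ± 0.05 in Hdac3-flox/flox hearts (SD, n = 3 each), without overlap, a difference of -0.47 (limma adjusted p = 0.0636).

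Core histones H2A, H2B, H3 and H4 form the octamer around which nuclear DNA is wound, and linker histone H1 binds where the DNA enters and leaves it. Most of their genes are replication-dependent: they lie in clusters, are transcribed in S phase and end in a stem-loop instead of a poly(A) tail. Near-identical copies encode nearly the same proteins, while replacement variants such as H2A.Z are made outside S phase from single genes with polyadenylated transcripts. The labelling kit used here primes along the whole transcript and reads RNAs with and without a tail.

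Clustered histone genes carry short proximal promoters, and 7 of them are shown as examples from each class: H2ac21, H2ac20, H2bc12, H2bc3, H1f3 and H4c17 are among the 11 genes whose groups did not overlap, and H4c12 is a bright gene with a difference near 0. Each run holds the 120 bases before the gene's start, 5′ to 3′ on the gene's own strand, from RefSeq with build GRCm38.p6. Capitals mark matches to 4 motifs, on either strand. The TATA box was searched as TATAAA and the CCAAT box by the letters of its name. The octamer known from H2B promoters was searched as ATTTGCAT, and the H1 box of linker histone promoters as AAACACA.
H2ac21, chr3:96219765-96219884, plus strand: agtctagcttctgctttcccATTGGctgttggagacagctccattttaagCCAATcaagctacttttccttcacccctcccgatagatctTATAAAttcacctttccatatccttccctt
H2ac20, chr3:96220881-96221000, minus strand: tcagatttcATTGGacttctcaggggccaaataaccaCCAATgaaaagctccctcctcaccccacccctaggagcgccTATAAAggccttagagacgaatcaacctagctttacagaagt
H2bc12, chr13:22035701-22035820, plus strand: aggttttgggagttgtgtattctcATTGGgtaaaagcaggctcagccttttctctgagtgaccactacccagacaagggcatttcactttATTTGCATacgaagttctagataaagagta
H2bc3, chr13:23746614-23746733, plus strand: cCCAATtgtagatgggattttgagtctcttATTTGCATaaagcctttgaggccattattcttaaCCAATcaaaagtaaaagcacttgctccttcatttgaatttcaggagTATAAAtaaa
H1f3, chr13:23554912-23555031, plus strand: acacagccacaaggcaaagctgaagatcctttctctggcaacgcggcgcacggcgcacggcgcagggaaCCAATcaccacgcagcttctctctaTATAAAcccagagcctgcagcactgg
H4c17, chr13:21811626-21811745, plus strand: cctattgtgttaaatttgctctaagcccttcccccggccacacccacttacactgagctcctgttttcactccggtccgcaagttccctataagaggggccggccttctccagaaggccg
H4c12, chr13:21750554-21750673, minus strand: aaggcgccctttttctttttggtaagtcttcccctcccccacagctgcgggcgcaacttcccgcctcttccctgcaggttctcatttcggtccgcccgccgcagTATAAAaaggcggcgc
Of the 29 genes, 27 had a promoter in the RefSeq table, and H2bc21 and H4c14 had none. On either strand, the CCAAT box was present in 20 of the 27, including 6 of 6 H2A and 7 of 7 H2B promoters but 1 of 6 H4 promoters, against 21.3% of all 32851 promoters of that length. The octamer was found in 4 promoters, all of H2B genes (H2bc3, H2bc12, H2bc14 and H2bc18), against 0.791% of all promoters. The TATA box was present in 9 of the 27 (all promoters 6.34%) and the H1 box in 5 (all promoters 2.68%). No marked matches overlapped one another in the runs shown, and the H4c17 run held none of the 4 motifs.

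Most histone genes read slightly higher in Hdac3-Isl1KO hearts, and none of the 29 passed the test over all genes. Of the 29 genes, 23 had positive differences and 6 negative ones, with a median log2 difference of 0.19, where the median over all 22180 genes was 0.000094 and 11093 were positive. The count of positive differences was 21 to 24 with any 1 array left out, and 8 genes turned sign under at least 1 alternative (H1f6, H1f7, H1f8, H2ac1, H2ac12, H2bc1, H4c1 and H4c8), so their signs are not settled. The members' median was 0.11, 0.07 and 0.17 above the genes' own means in the 3 Hdac3-Isl1KO arrays, against 0.09, 0.06 and 0.13 below them in the 3 Hdac3-flox/flox arrays. With limma at an adjusted p under 0.05, 0 of the 29 were called in either direction, where 0.428% of all genes were (0.23% higher and 0.198% lower). At an unadjusted p under 0.05, 12 of 29 were higher (6.57% of all genes) and 0 lower (7.96% of all genes). In 11 of 29 every Hdac3-Isl1KO array lay above every Hdac3-flox/flox array (9.41% of all genes), and in 0 of 29 every one lay below (12.4% of all genes). Because histone genes share sequence, and probes of one may read another, these 29 are not independent measurements. In whole hearts, fewer cells of a type and less RNA per cell cannot be told apart.

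**Figure D1:**
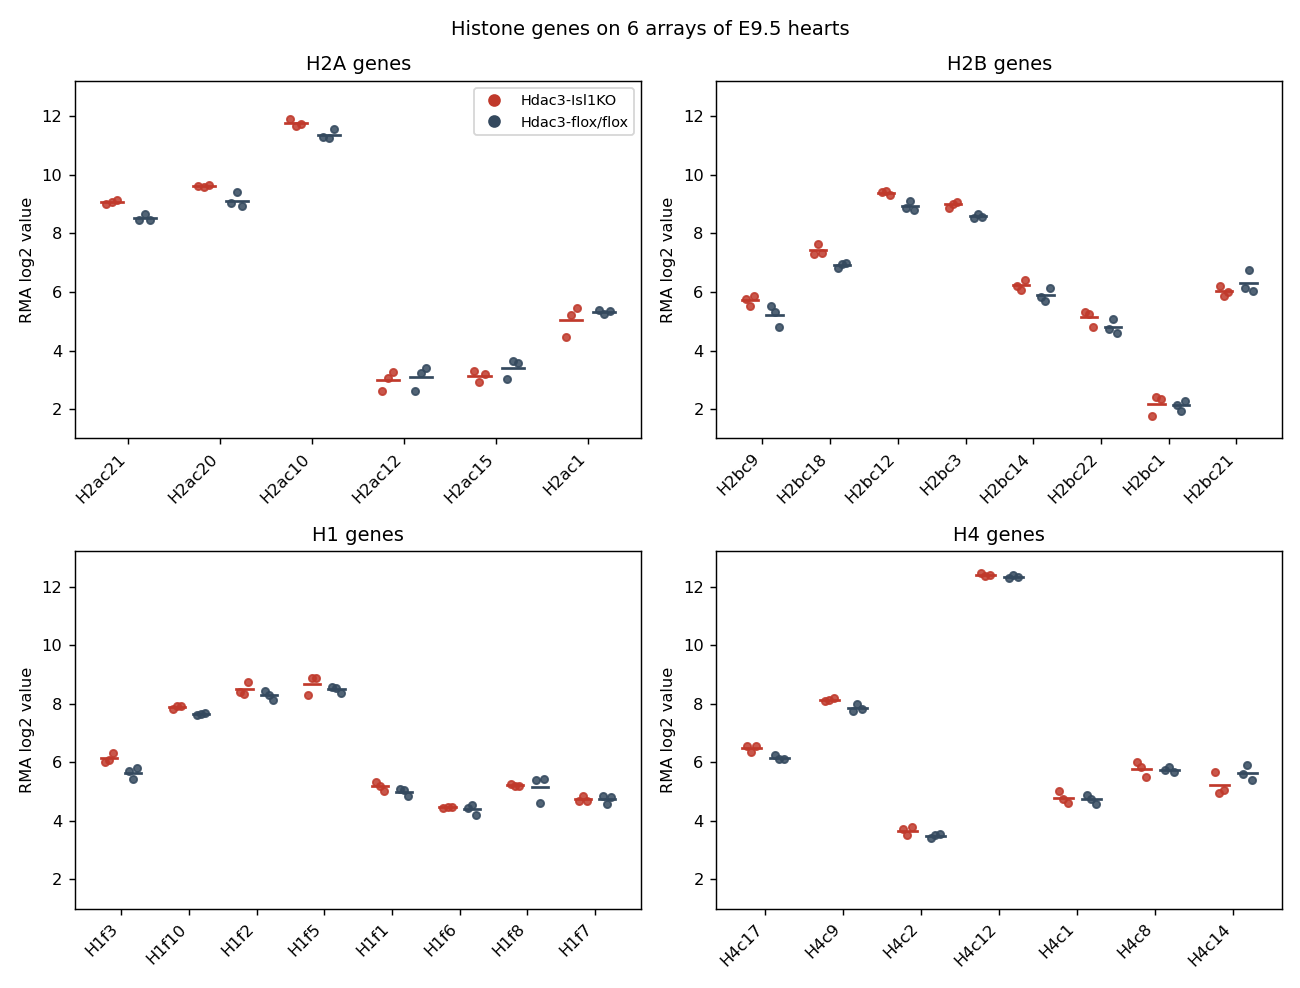
RMA log2 values of the 29 histone genes on 6 arrays, by class; each point is 1 array, bars are group means, and Hdac3-Isl1KO stands left of Hdac3-flox/flox for each gene. H2ac21, H2ac20 and H2ac10 and the H2B genes H2bc9, H2bc18, H2bc12 and H2bc3 show no overlap of the groups, barely so for H2bc9. The dim genes H2ac12, H2ac15 and H2bc1 do overlap.

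H2A genes split into 3 whose groups did not overlap and 3 dim ones whose groups did. H2ac21, of the chromosome 3 cluster, read 9.01, 9.05 and 9.13 in Hdac3-Isl1KO, against 8.45, 8.66 and 8.46 in Hdac3-flox/flox hearts. All 3 Hdac3-Isl1KO values lay above all others, and the difference of 0.54 (95% interval 0.34 to 0.74), or 1.46-fold, was the closest of the 29 to the threshold (limma adjusted p = 0.0586). It passed under 6 of 17 alternatives, with limma adjusted p-values from 0.00126 to 0.240 over them. A dimmer row of H2ac21, with a mean of 4.52, differed by 0.14.

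H2ac20, its neighbour in the RefSeq gene order, read 9.62, 9.58 and 9.66 in Hdac3-Isl1KO, against 9.02, 9.40 and 8.93 in Hdac3-flox/flox hearts. The groups did not overlap, although Hdac3-flox/flox replicate 2 stood nearer to the Hdac3-Isl1KO values than the other controls (difference 0.50, limma adjusted p = 0.167). On chromosome 13, H2ac10 read 11.89, 11.68 and 11.73 in Hdac3-Isl1KO, against 11.30, 11.26 and 11.55 in Hdac3-flox/flox hearts, again without overlap (difference 0.40, 95% interval 0.15 to 0.64, limma adjusted p = 0.176). Both missed the threshold and passed it with a trended prior, in which the expected variance depends on the mean. H2ac12 and H2ac15 differed by -0.10 and -0.26 with overlapping groups, and their means lay under the 25th percentile row of the array, 4.45, where background cannot be separated from signal. H2ac1, a testis H2A gene, read 4.46, 5.22 and 5.46 in Hdac3-Isl1KO, against 5.39, 5.23 and 5.34 in Hdac3-flox/flox hearts. Its difference of -0.27 rested on Hdac3-Isl1KO replicate 1 and was 0.02 without that array.

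H2B genes had a median of 0.37, with 7 of 8 differences positive. Among genes above the median row the H2A median was 0.50 and the H2B median 0.41, so the order of the 2 classes turned with the filter on dim genes. H2bc3 read 8.86, 9.01 and 9.08 in Hdac3-Isl1KO, against 8.52, 8.66 and 8.57 in Hdac3-flox/flox hearts. H2bc12 read 9.41, 9.45 and 9.30 in Hdac3-Isl1KO, against 8.85, 9.10 and 8.80 in Hdac3-flox/flox hearts. H2bc18, of the chromosome 3 cluster, read 7.28, 7.64 and 7.33 in Hdac3-Isl1KO, against 6.82, 6.97 and 6.98 in Hdac3-flox/flox hearts. In all 3 genes the groups did not overlap, and the group means differed by 0.41, 0.47 and 0.49, or 1.32-fold, 1.38-fold and 1.41-fold. Limma adjusted p-values were 0.115, 0.121 and 0.142, and each gene passed under 3 of 17 alternatives, with ranges of 0.00689 to 0.343, 0.00669 to 0.341 and 0.0235 to 0.323.

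Among the remaining H2B genes, H2bc9 read 5.78, 5.523 and 5.87 in Hdac3-Isl1KO, against 5.519, 5.31 and 4.80 in Hdac3-flox/flox hearts. Its groups barely missed overlapping, at 5.523 against 5.519 (difference 0.51, limma adjusted p = 0.291). H2bc14 and H2bc22 differed by 0.33 each with overlapping groups, at limma adjusted p-values of 0.323 and 0.452. The testis gene H2bc1 was dim in every array, between 1.75 and 2.41, and differed by 0.05, a sign that turned with some arrays left out. H2bc21, next to H2ac20 in the gene order of chromosome 3, went the other way: it read 6.20, 5.87 and 6.01 in Hdac3-Isl1KO, against 6.13, 6.74 and 6.04 in Hdac3-flox/flox hearts, with overlap (difference -0.27, limma adjusted p = 0.566). The 4 genes whose promoters carry the octamer differed by 0.33 to 0.49, and the 3 others with a promoter in the table, H2bc1, H2bc9 and H2bc22, by 0.05, 0.51 and 0.33. H2bc12 and H2ac12, which lie head to head, differed by 0.47 and -0.10, the second at dim values.

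**Figure D2:**
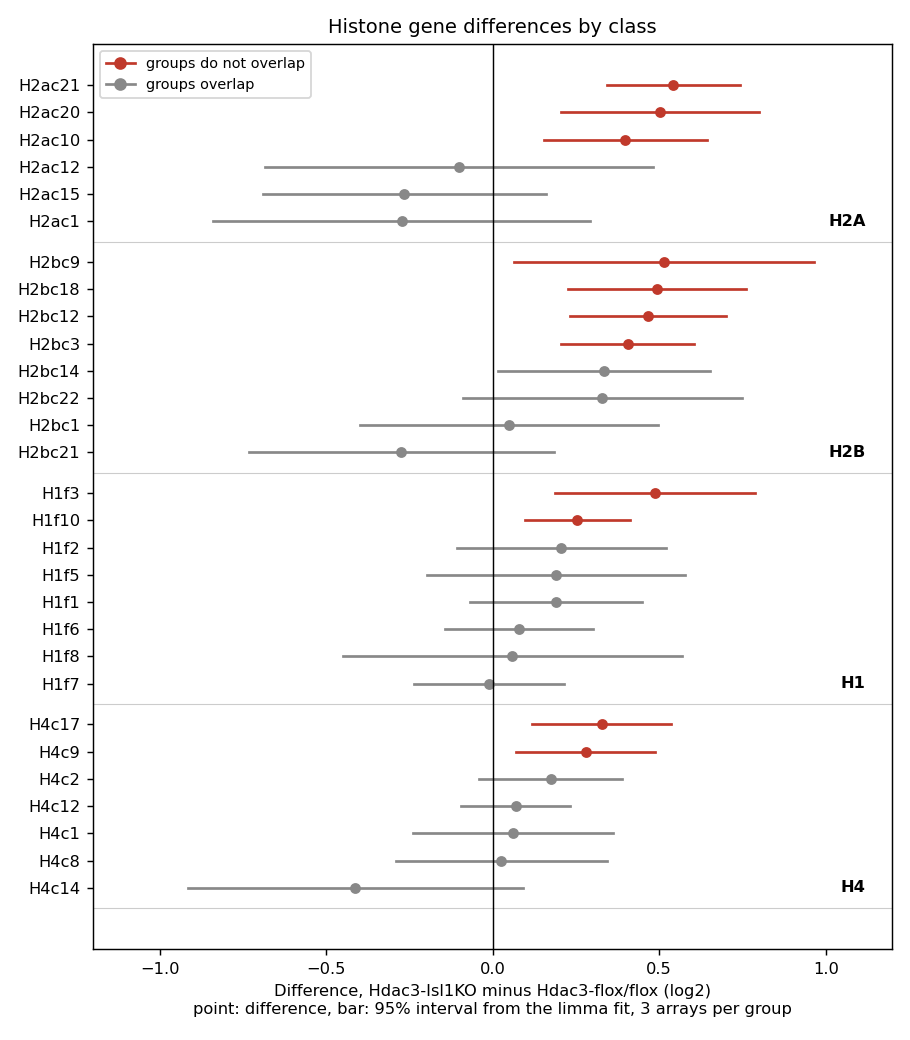
Log2 differences of the 29 histone genes (Hdac3-Isl1KO over Hdac3-flox/flox) with 95% intervals from the limma fit (3 arrays per group); red marks genes whose groups do not overlap. The 11 red genes all lie right of 0, and the negative differences, such as H4c14 at -0.41 and H2bc21 at -0.27, have intervals that cross 0.

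Linker histone genes had 7 of 8 positive differences and a median of 0.19. H1f3, which encodes H1.3, read 6.01, 6.07 and 6.31 in Hdac3-Isl1KO, against 5.71, 5.42 and 5.80 in Hdac3-flox/flox hearts, without overlap (difference 0.49, 95% interval 0.19 to 0.79, limma adjusted p = 0.178). H1f10, which encodes the replacement linker histone H1X, read 7.83, 7.93 and 7.92 in Hdac3-Isl1KO, against 7.61, 7.64 and 7.67 in Hdac3-flox/flox hearts. Its groups did not overlap, with a smaller difference of 0.25 (limma adjusted p = 0.179, and 0.0489 to 0.426 over the alternatives). A dimmer row shared by H1f10 and Gm5577 differed by -0.04 with overlapping groups. H1f1, H1f2 and H1f5, the replication-dependent linker genes left, differed by 0.19, 0.21 and 0.19 with overlapping groups. The germ cell linker genes H1f6 and H1f7 of testis and H1f8 of oocytes differed by 0.08, -0.01 and 0.06, and all 3 had means below the median row.

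H4 genes had 6 of 7 positive differences but a median of only 0.07. H4c17 read 6.55, 6.34 and 6.55 in Hdac3-Isl1KO, against 6.25, 6.11 and 6.10 in Hdac3-flox/flox hearts, and H4c9 read 8.08, 8.12 and 8.19 in Hdac3-Isl1KO, against 7.74, 8.001 and 7.81 in Hdac3-flox/flox hearts. Both were without overlap, with differences of 0.33 and 0.28 between group means (limma adjusted p = 0.190 and 0.237). H4c12 read 12.46, 12.37 and 12.38 in Hdac3-Isl1KO, against 12.28, 12.40 and 12.33 in Hdac3-flox/flox hearts. Its groups overlapped, with a difference of 0.07 (95% interval -0.09 to 0.23). H4c1, H4c2 and H4c8 differed by 0.06, 0.17 and 0.03. H4c14, of the chromosome 3 cluster, had the lowest difference of the 29, -0.41 (95% interval -0.91 to 0.09, limma adjusted p = 0.433): it read 5.67, 4.96 and 5.05 in Hdac3-Isl1KO, against 5.59, 5.91 and 5.41 in Hdac3-flox/flox hearts, with Hdac3-Isl1KO replicate 1 inside the control range.

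Class medians rest on 6 to 8 genes each and moved with single arrays. The H2A median of 0.15 was 0.06 without Hdac3-flox/flox replicate 1, 0.08 without Hdac3-Isl1KO replicate 3 and 0.24 without Hdac3-flox/flox replicate 3. The H1 median was 0.09 without Hdac3-Isl1KO replicate 3 and 0.13 without Hdac3-flox/flox replicate 3. The H4 median was 0.04 without Hdac3-Isl1KO replicate 1, 0.15 without Hdac3-Isl1KO replicate 3 and 0.14 without Hdac3-flox/flox replicate 1. The H2B median stayed between 0.34 and 0.46, and the median of all 29 between 0.17 and 0.25, with any 1 array left out.

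Members also differed by brightness and by cluster. The 16 genes with means above the median row had a median of 0.33, where all 12480 genes above it had -0.02, and the 13 below it had a median of 0.06, where all 9700 genes below it had 0.04. Genes on chromosome 13 had a median of 0.19 over 21 genes. Those on chromosome 3 had 0.49 over 5, of which 3 were apart upward (9.41% of all genes) and 2 were negative. The 23 genes taken as replication-dependent, which are all members but 6 germ cell and replacement genes, had a median of 0.28. Those 6 had a median of 0.05. These splits are descriptions, with no test between them.

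Under other variance models more of the members passed. With the trended prior, 6 of 29 were called higher, H2ac10, H2ac20, H2ac21, H2bc3, H2bc12 and H2bc18, where 1.6% of all genes were. With genes below the median row left out, 5 of the 16 remaining were called higher (H1f10, H2ac21, H2bc3, H2bc12 and H2bc18), where 2.09% of all genes tested were. H2ac21 alone passed with array weights (0.609% of all genes higher), with quantile normalization (0.388%) and with genes below the 25th percentile row left out (0.712%). Under 0 of the 17 alternatives was a member called lower, and with any 1 array left out 0 were called in either direction.

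Rows of the array that carry several histone symbols give a second reading, including the only one of H3. There were 38 such rows, 3 of them copies with the same values as another, which leaves 35 distinct rows. They name 52 histone genes, 37 of which have no row of their own, among them all 12 H3 genes. Differences and p-values for them come from a limma fit over all 41345 rows of the array. Of the 35, 23 were positive and 12 negative, with a median of 0.11 where all rows had -0.0065. In 13 every Hdac3-Isl1KO array lay above every Hdac3-flox/flox array (8.1% of all rows), in 1 below (11.0% of all rows), and 0 passed at an adjusted p under 0.05 (0.075% of all rows). At an unadjusted p under 0.05, 7 were higher and 1 lower, where 4.96% of all rows were higher and 2821 of the 41345 rows lower.

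Shared H2B rows without H1 genes were positive in 7 of 7, with a median of 0.27, and 5 were apart upward (8.1% of all rows). A further row, shared by H1f4 with H2bc6, H2bc8 and H2bc4, differed by -0.03 with overlapping groups. A row shared by H2bc13, H2bc15, H2bc11 and H2bc7 read 12.79, 12.90 and 12.91 in Hdac3-Isl1KO, against 12.53, 12.26 and 12.57 in Hdac3-flox/flox hearts, a difference of 0.41 (95% interval 0.15 to 0.67). A dimmer row of the same 4 genes read 6.53, 6.60 and 6.61 in Hdac3-Isl1KO, against 6.10, 6.22 and 5.99 in Hdac3-flox/flox hearts, a difference of 0.48 (limma adjusted p = 0.161). Both rows kept the groups apart, while a still dimmer row of these 4 genes differed by 0.20 with overlapping groups.

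Shared H2A rows were positive in 7 of 9, with a median of 0.17. The row led by H2ac22, shared by 10 genes, read 12.48, 12.49 and 12.45 in Hdac3-Isl1KO, against 12.19, 12.04 and 12.26 in Hdac3-flox/flox hearts, a difference of 0.31 (limma adjusted p = 0.288). The row of H2ac18, H2ac19 and H2ac20 on chromosome 3 read 12.85, 12.87 and 12.95 in Hdac3-Isl1KO, against 12.64, 12.68 and 12.70 in Hdac3-flox/flox hearts, a difference of 0.21 where the row of H2ac20 alone gave 0.50. The row led by H2ac23 and shared by 12 genes read 12.65, 12.68 and 12.62 in Hdac3-Isl1KO, against 12.56, 12.55 and 12.57 in Hdac3-flox/flox hearts, a smaller difference of 0.09 (95% interval -0.07 to 0.26, limma adjusted p = 0.653). The groups were apart in all 3 rows. Of the 9 shared H2A rows, 4 were apart upward (8.1% of all rows) and 0 downward (11.0% of all rows). The other rows of the 10 genes on the row led by H2ac22 differed by -0.10 to 0.29. Among those, only the row led by H2ac6 was apart. The 5 shared H4 rows had a median of 0.19, from -0.34 to 0.31.

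H3 rows went both ways. Of 12, 6 were positive and 6 negative, with a median of -0.03. In 2 the groups were apart upward (8.1% of all rows) and in 1 downward (11.0% of all rows). The row led by H3c15 with values above 9 read 9.13, 9.13 and 9.11 in Hdac3-Isl1KO, against 9.09, 9.09 and 9.04 in Hdac3-flox/flox hearts, a difference of 0.05 (95% interval -0.12 to 0.22). A second row led by H3c15 differed by -0.22. The row that was apart downward, led by H3c1, was dim: it read 3.30, 3.55 and 3.53 in Hdac3-Isl1KO, against 3.64, 3.91 and 4.20 in Hdac3-flox/flox hearts (difference -0.46, limma adjusted p = 0.363).

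**Figure D3:**
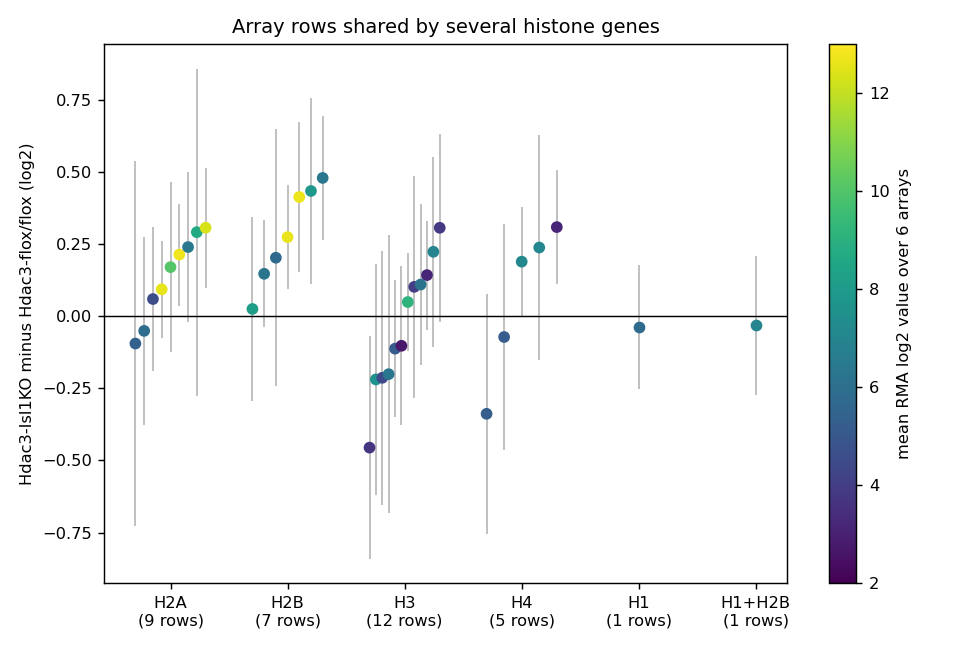
Differences (log2, Hdac3-Isl1KO minus Hdac3-flox/flox) of the 35 distinct array rows that name several histone genes, by class; grey bars are 95% intervals from limma over 3 arrays per group, and colour gives the mean RMA log2 value. All 7 H2B rows without H1 genes lie above 0, and the row shared by H1 and H2B genes lies at -0.03. The 12 H3 rows spread from -0.46 to 0.31.

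Replacement histone variants were measured beside the members as a list of 7 genes, 6 of H2A and the H3 variant gene Cenpa, of which 0 passed in either direction and 5 were positive, with a median of 0.04. H2az1, which encodes H2A.Z, averaged 6.97 in Hdac3-Isl1KO and 6.44 in Hdac3-flox/flox hearts. Its difference of 0.53 was without overlap (limma adjusted p = 0.177, and 0.0422 to 0.402 over the alternatives). H2ax, the H2A variant phosphorylated at DNA breaks, differed by 0.23 and H2az2 by 0.17, both without overlap (limma adjusted p = 0.275 and 0.293). H2aj differed by -0.14 and Cenpa, which encodes the centromeric H3 variant, by 0.04, and both signs turned with 1 array left out.

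Genes that make and load histones had medians near 0. Of 20 genes for histone transcription and 3′ end processing, 0 passed in either direction, 12 were positive and the median was 0.04. Slbp, whose product binds the stem-loop of histone messages, differed by 0.09, and Npat, the coactivator at the clusters, by -0.13. Cdk2, the kinase that acts on Npat, differed by -0.19, Lsm1, which takes part in histone message decay, by 0.19 and Cstf3 by -0.18. Limma adjusted p-values were 0.253 to 0.518 for these and Npat, and 0.0420 to 0.472 over the alternatives for Cdk2. Of 22 histone chaperones 0 passed, with a median of 0.0091. Atrx, which loads H3.3, differed by -0.24 (limma adjusted p = 0.240, and 0.0475 to 0.477 over the alternatives). Npm1 differed by 0.15, Rbbp4 by 0.12 and Hirip3 by -0.12. The sign of Rbbp4 turned when its rows were averaged, to -0.075.

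S phase and mitosis genes had medians just below 0. Of 24 S phase genes 0 passed, 10 were positive and 14 negative, and the median was -0.02: E2f1 differed by -0.22, Fen1 by 0.18, Cdc6 by -0.14 and Tyms by -0.11 (limma adjusted p-values from 0.256 to 0.553). Of 10 mitosis genes 0 passed, with a median of -0.02. In 3 of them the groups were apart downward (12.4% of all genes), and in 0 upward (9.41% of all genes). Mki67 differed by -0.23, Ccna2 by -0.21, Birc5 by -0.11 and Plk1 by 0.09 (limma adjusted p-values from 0.219 to 0.623). Over the alternatives, limma adjusted p-values were 0.0162 to 0.459 for Mki67 and 0.0194 to 0.487 for Ccna2.

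Another group of RNAs without poly(A) tails, the small nucleolar RNAs that guide modification of ribosomal RNA, went the other way. Of 73 measured, 13 fell, where 0.198% of all genes did, and 0 rose (limma adjusted p from 0.0144 to 0.0496), 67 were negative and the median was -0.41. With any 1 array left out, 0 or 1 of all genes in these lists passed, and with the replicate block or with all rows tested 0 did. Among those that fell were Snord61, at 8.98 in Hdac3-Isl1KO and 10.26 in Hdac3-flox/flox hearts, and Snord1b, at 8.99 in Hdac3-Isl1KO and 10.21 in Hdac3-flox/flox hearts. Their part in the histone differences was not tested.

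**Figure D4:**
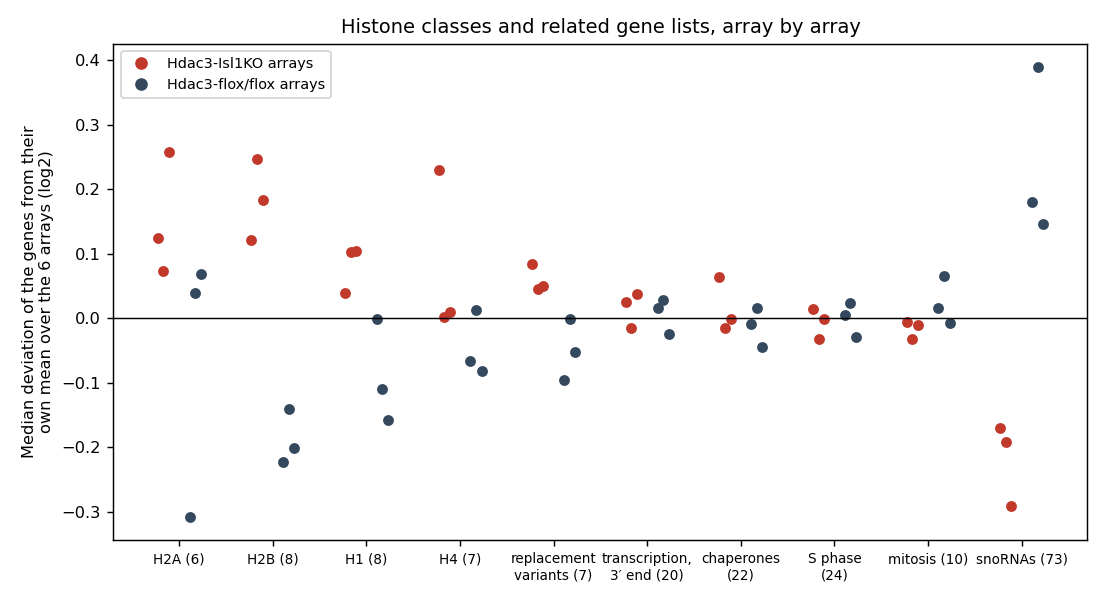
Median deviation (log2) of the genes of each histone class or related list from their own means over the 6 arrays, 1 point per array, with Hdac3-Isl1KO left of Hdac3-flox/flox and gene numbers in brackets. The H2A, H2B, H1 and replacement variant points do not overlap between groups and neither do the snoRNA points, in the opposite direction, while S phase and chaperone points mix around 0.

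Of the markers of other cell types, 4 passed the test: Fgb upward, and Upk3b, Upk1b and Kel downward. Over all genes, 0.23% passed upward and 0.198% downward. Each of the 4 markers missed the threshold under some alternatives, where limma adjusted p-values reached 0.119, 0.105, 0.167 and 0.105 in that order. Endoderm and liver markers were positive in 7 of 7, with summed levels of 8.93 to 9.03 in Hdac3-Isl1KO and 8.33 to 8.57 in Hdac3-flox/flox hearts (log2 of the summed linear values), and Fgb passed upward. Epithelial markers were positive in 4 of 4, with summed levels of 9.66 to 9.81 in Hdac3-Isl1KO and 9.28 to 9.36 in Hdac3-flox/flox hearts, and 0 passed. Epicardial markers were negative in 5 of 6, with summed levels of 10.71 to 10.78 in Hdac3-Isl1KO and 11.18 to 11.28 in Hdac3-flox/flox hearts, and Upk3b and Upk1b passed downward. Erythroid markers were negative in 5 of 7, with Kel passing downward, while Hbb-bh1 differed by 0.28 without overlap. Their summed levels overlapped, at 12.99 to 13.05 in Hdac3-Isl1KO and 12.99 to 13.09 in Hdac3-flox/flox hearts. Cardiomyocyte markers were negative in 8 of 10, with 0 passing. The RMA scale has no true 0, so absent markers cannot be told from dim ones. The part of these tissues in the histone differences was not tested.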

How the data were processed

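The data were RMA log2 expression values of 6 arrays, deposited by the authors as 1 table. Per the labels' protocols, RNA of pooled hearts came from a Qiagen RNeasy kit, and 100 ng of it went into biotin labelling with the Affymetrix WT PLUS kit. Oligo and RMA are the tools named, per the submitters' processing notes. Versions, build and annotation: not given in the sources used here. Nothing says that pools were of separate litters, so p-values cover only the spread among the pools, possibly technical.

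Symbols are those of the platform annotation. Of 41345 rows, 23521 had 1 symbol, 1814 several and 16010 none listed. Of the rows with 1 symbol, 23328 matched a RefSeq gene table (GRCm38.p6) by gene number, used for names, gene type, chromosome and order. R 4.3.3 and limma 3.58.1 gave two-sided moderated tests of the 22180 genes (eBayes with a constant prior, 6.92 degrees of freedom). P-values were adjusted by Benjamini and Hochberg's method across the whole set, and 0.05 was the threshold. The steps were tested on simulated data. A positive log2 difference means higher in Hdac3-Isl1KO; intervals are 95% from the fit. No H3 gene had a row with 1 symbol, and H1f0 was not analysed here. The number of arrays limits the precision.

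Genes named were Hdac3, members past the threshold, the 4 smallest p-values per class, testis genes, members whose rows differ in sign and the 4 smallest p-values (or all called) per related list; the values of the remaining members, and the choice of shared rows, shared-row genes and marker genes, were made after the values were seen. Members and lists were chosen with earlier results of these data known. Of the related lists 8 genes, and of the marker lists 7, had no row with 1 symbol. Trophoblast (4 genes, median 0.13), endothelial (6, -0.03), macrophage (4, 0.06) and smooth muscle and neural crest markers (4, 0.20) had 0 genes past the threshold. The alternatives tried were leaving out each array, a replicate block, quantile normalization, median centring, 2 filters on dim genes, the mean of a gene's rows, 2 trended priors, array weights, protein-coding genes only and, added after the data were seen, all rows.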

Additional observations from a re-analysis of the deposited data

How the results depend on the processing

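The count of histone genes called higher was 0 and became 1 with quantile normalization, array weights or genes above the 25th percentile row, 5 with genes above the median row, and 6 with a trended prior, robust or not; the cause was not tested beyond the number of genes the filters leave. With any 1 array left out it stayed at 0, as it did for genes called lower. Genes called in the related lists, 13, numbered 44 with either trended prior, 31 and 21 with genes above the median and the 25th percentile row, 22 with array weights, 0 with the replicate block, 0 with all rows tested, 0 with protein-coding genes only (which leaves out the small nucleolar RNAs that were called) and 0 to 1 with any 1 array left out. The median of all 29 histone genes, 0.19, was 0.33 and 0.27 above the median and 25th percentile rows. It was 0.28 over the genes taken as replication-dependent, and 0.17 to 0.25 with any 1 array left out. Above the median row the H2A median was 0.50, the H2B median 0.41 and the H4 median 0.17, and above the 25th percentile row the H2A median was 0.45 and the H2B median 0.41. Leaving out 1 array gave 0.087 to 0.24 for H1, 0.062 to 0.24 for H2A, 0.34 to 0.46 for H2B and 0.040 to 0.15 for H4. Signs turned for H1f6 (-0.010 without Hdac3-flox/flox replicate 3), H2ac1 (0.020 without Hdac3-Isl1KO replicate 1, range -0.48 to 0.020), H2bc1 (-0.070, -0.044 and -0.045 without Hdac3-Isl1KO replicates 2 and 3 and Hdac3-flox/flox replicate 2, range -0.070 to 0.26), H2aj (0.012 without Hdac3-flox/flox replicate 3, range -0.26 to 0.012) and Rbbp4 (-0.075 with rows averaged). With 1 array left out, signs also turned for H1f7 (range -0.095 to 0.037), H1f8 (-0.21 to 0.20), H2ac12 (-0.34 to 0.088), H4c1 (-0.047 to 0.15), H4c8 (-0.088 to 0.17) and Cenpa (-0.011 to 0.094). With array weights they turned for H1f8 (-0.067), H2ac12 (0.14), H4c1 (-0.026) and Cenpa (-0.012). The cause was not tested.

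Replicate numbers did not pair the arrays: same-numbered arrays had correlations of deviations of -0.01, -0.09 and 0.04, and not every array correlated best with its own number. With the replicate block 0 histone genes were called and the lowest limma adjusted p among them was 0.209. An H3 median could not be computed, since no H3 gene had a row of its own. Without detection calls, dim rows cannot be separated from background.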
